A study of Homo sapiens with 9 samples.

Results

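The aldo-keto reductases (AKR) and aldehyde dehydrogenases (ALDH) were examined in OVCAR3, an established human ovarian cancer cell line, after knock-down of GPX3, the gene of a secreted glutathione peroxidase. Members were the protein-coding genes whose symbol is AKR or ALDH followed by a digit, leaving out ALDH1L2. The rule found 31 genes, 13 AKR and 18 ALDH, among 58735 rows of the count table, of which 19951 are protein-coding. RNA was sequenced from 9 samples in 3 groups of 3, all collected after 72 h of culture in serum-containing medium with added bovine insulin. The scramble group carried a control hairpin and is labelled wild type, and the groups called sh76 and sh78 here carried the hairpins numbered 76 and 78 against GPX3. Both knock-down groups are therefore compared with the same 3 scramble samples.

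Enzymes of both families remove reactive carbonyl compounds, including the aldehydes released when peroxides attack membrane lipids. Aldo-keto reductases use NADPH to reduce aldehydes and ketones to alcohols, and several of them also act on steroids and prostaglandins. Aldehyde dehydrogenases oxidize aldehydes to carboxylic acids through a cysteine in the active site, and members of the ALDH1A branch make retinoic acid in this way. High aldehyde dehydrogenase activity is used to sort stem-like cells from ovarian tumours.

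Libraries held 14652965 to 21327562 counts, so that 1 CPM (a count relative to library size), before TMM scaling factors are applied, was 14.7 to 21.3 counts. GPX3 stood at 133 CPM in scramble, 55.9 in sh76 and 30.7 in sh78, a log2 fold change of −1.25 (edgeR quasi-likelihood test, adjusted p = 0.00264) and −2.12 (adjusted p = 0.000125). All 12 of 12 ovarian carcinoma and epithelial markers were expressed. Their summed level was 12500 to 13400 CPM in scramble, 11300 to 12200 in sh76 and 10500 to 11000 in sh78. The largest falls in mean CPM from scramble to sh78 were in KRT8 (5562 to 3878) and KRT18 (2177 to 1579). WT1 (108.1 to 80.57), EPCAM (317 to 252.4), CDH1 (243.7 to 208.2), MSLN, CLDN3 and SOX17 also averaged lower in sh78. PAX8 (902.5 to 959.9), MUC16 (1555 to 1620), KRT7 (1286 to 1434) and MECOM (60.01 to 60.56) averaged higher. At an edgeR adjusted p under 0.05, 3 of the 12 were lower in sh78 (KRT8, KRT18 and EPCAM) and 0 higher. Over all genes tested, 2.56% were lower and 1.85% higher. Summed fibroblast markers lay at 27.6 to 55.1 CPM over all samples, with COL1A1 the most abundant at 25.5 to 44.5 CPM, and leukocyte markers at 1.61 to 3.18 CPM. Hepatocyte markers, listed because liver is rich in both families, lay at 41.3 to 53.1 CPM in scramble, 40.5 to 53.4 in sh76 and 33.3 to 36.2 in sh78, with TTR at 0 counts in every sample. Endothelial markers lay at 17 to 19.9, 18.1 to 24.2 and 23.1 to 31.9 CPM, and their change was carried by KDR. The part of these markers in the results was not tested. In RNA from whole cultures, fewer cells that express a gene and less RNA per cell cannot be told apart.

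Coding stretches are shown first for ALDH1A1, ALDH1B1 and ALDH2, the 3 aldehyde dehydrogenases called with both hairpins, around the codon of the catalytic cysteine (capitals). They are 45 bases of the longest open reading frame of each gene's GENCODE 29 transcripts, 5′ to 3′, found by the residues glycine, glutamine, any residue, cysteine, which occur once in 14 of the 18 ALDH members.
ALDH1A1: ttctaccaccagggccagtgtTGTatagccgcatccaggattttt
ALDH1B1: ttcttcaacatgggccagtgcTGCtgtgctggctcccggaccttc
ALDH2: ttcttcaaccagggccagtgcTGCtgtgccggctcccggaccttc
The cysteine is residue 303 of 501 in ALDH1A1 and residue 319 of 517 in both ALDH1B1 and ALDH2. Compared position by position, ALDH2 and ALDH1B1 share 71.2% of 1554 coding bases and 72.7% of 517 residues.

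The AKR1C genes are shown because their transcripts are near copies, which bears on how reads were divided among them. The first 60 coding bases are printed, with capitals where a base differs from AKR1C1.
AKR1C1: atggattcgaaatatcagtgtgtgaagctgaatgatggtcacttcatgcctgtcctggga
AKR1C2: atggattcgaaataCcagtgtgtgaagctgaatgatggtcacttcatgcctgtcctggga
AKR1C3: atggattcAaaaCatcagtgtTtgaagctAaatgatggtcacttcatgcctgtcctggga
Over all 972 coding bases AKR1C1 and AKR1C2 differ at 19, which leaves 98.0% identical and 7 of 323 residues changed. AKR1C3 differs from AKR1C1 at 79 bases and from AKR1C2 at 85.

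Levels between genes were compared on the deposited FPKM scale (counts per length and library size). For all 31 members the length is that of all annotated exons merged, which can exceed the length of the transcripts present. The order, the classes, and the FPKM shares and sums below depend on these lengths. ALDH7A1 had a higher mean CPM in scramble than AKR1A1 (129.8 against 122.4). With a length of 17970 bases, against 3121, ALDH7A1 stood lower on the FPKM scale, at 7.185 FPKM. In scramble cells AKR1A1, a broad aldehyde reductase, led the 31 members with a mean of 39.0 FPKM, above 95% of protein-coding genes. ALDH18A1 followed at 24.5 FPKM, and ALDH1A1 and AKR1B1 both averaged 19.9 FPKM with overlapping ranges. ALDH9A1, ALDH3B1, AKR7A2 and ALDH3A2 lay between 18.1 and 18.9 FPKM, and neighbours in that order overlapped. ALDH3B2 was the last of the 9 members at 10 FPKM or more. Another 9 members lay from 1 to 10 FPKM, and 13 lay under 1 FPKM, against a median of 1.73 FPKM over protein-coding genes. AKR1C1 to AKR1C4 and AKR1C8P were all in the lowest class, with AKR1C3 highest at 0.518 FPKM and AKR1C4 at 0.

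**Figure D1:**
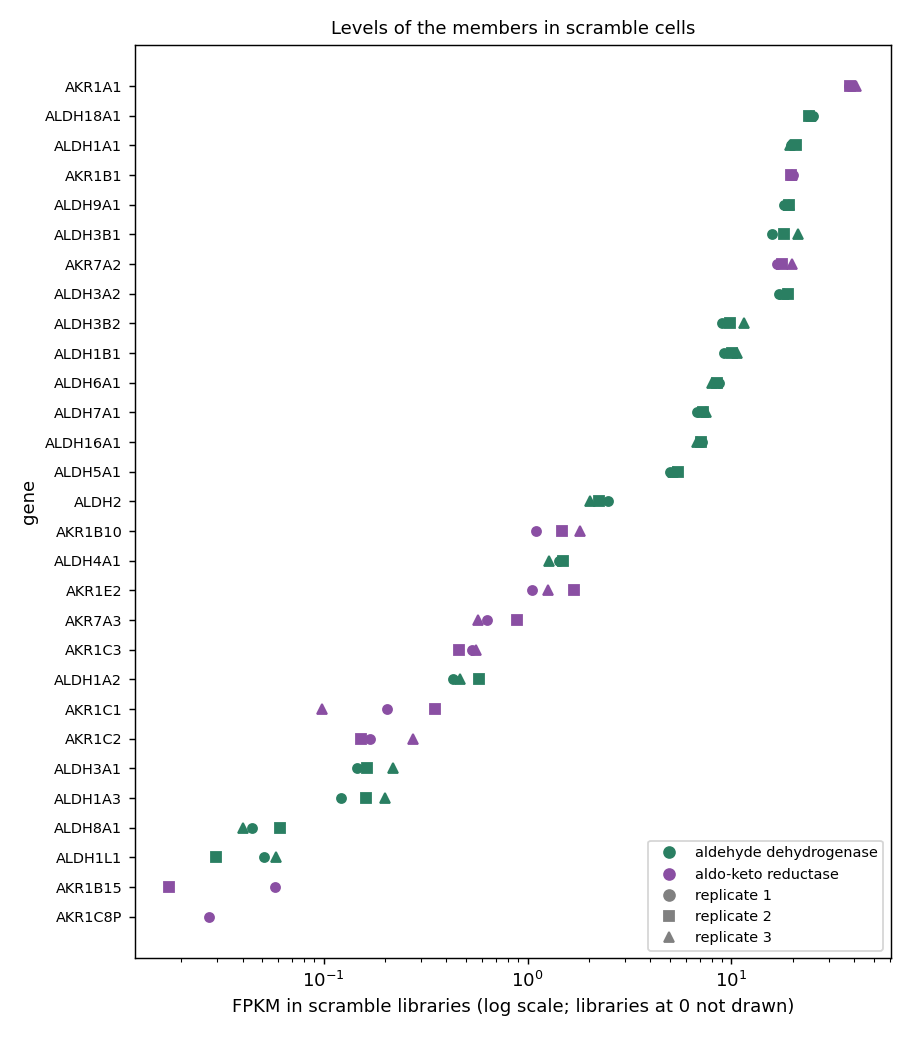
Levels of the members in the 3 scramble samples, in FPKM on a log axis, by gene and coloured by family; symbols mark the replicate, and samples at 0 are not drawn. AKR1A1 leads at a mean of 39.0 FPKM, and 13 members lie under 1 FPKM.

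A minimum on counts left 26 members for testing, 9 AKR and 17 ALDH. The other 5 were ALDH8A1 (0 to 3 counts per sample), AKR1C8P (0 to 1 counts), the hepatic steroid reductases AKR1C4 and AKR1D1 (0 counts in all 9 samples, under the limit of 3 counts per sample that a count of 0 allows), and AKR1B15. AKR1B15, a relative of AKR1B10, had 3, 1 and 0 counts in scramble. It had 4, 11 and 9 counts in sh76 and 5, 1 and 0 in sh78. The sh76 counts of AKR1B15 were all above those of scramble, but without the count minimum its difference was not called (edgeR, adjusted p = 0.211).

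In sh76 against scramble, 2 of the 26 tested members rose (AKR1C3 and ALDH1B1) and 3 fell (AKR1B1, ALDH1A1 and ALDH2), at an edgeR adjusted p under 0.05 over 17023 genes. Over all genes tested, 1.43% rose and 2.16% fell, 3.58% in all. In sh78, 1 member rose (ALDH1B1) and 6 fell (AKR1B1, AKR1B10, ALDH1A1, ALDH2, ALDH5A1 and ALDH6A1), where 1.85% of all genes rose and 2.56% fell, 4.41% in all. The median log2 fold change of the tested members was −0.09 in sh76 and −0.12 in sh78, beside 0.01 over all genes in both. Samples did not overlap with scramble in 5 members above and 6 below for sh76, where 10.8% and 11.7% of all genes did so. For sh78 this held for 4 members above and 6 below, where 10.2% and 11.2% of all genes did so. A fit that also took the replicate number as a block had 4 residual degrees of freedom, against 6 without it. In that fit 3 members were called higher and 4 lower in sh76 (all genes 9.63% and 10.7%), and 4 higher and 6 lower in sh78 (all genes 9.79% and 10.1%).

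**Figure D2:**
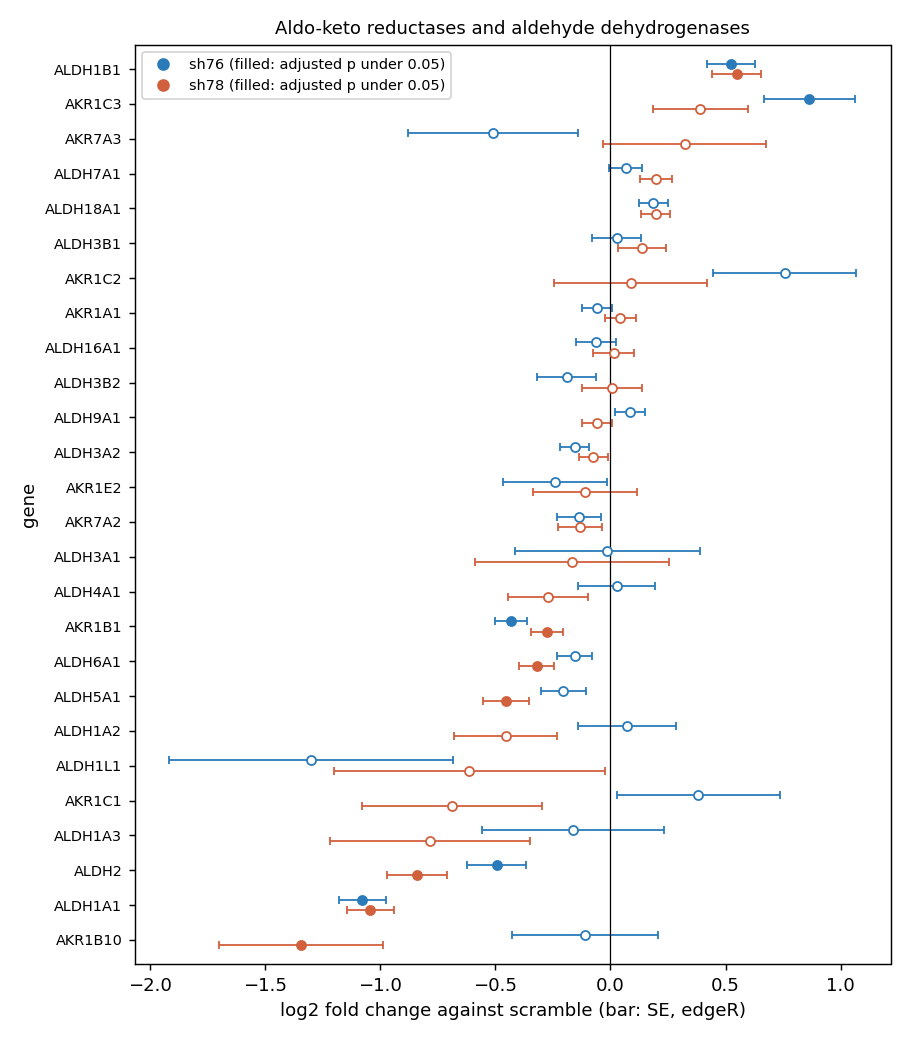
Log2 fold change of each of the 26 tested members in sh76 (blue) and sh78 (orange) against the shared scramble samples, with the edgeR standard error as bars and filled points where the adjusted p was under 0.05. ALDH1A1 lies near −1.08 and −1.04, and ALDH1B1 near 0.52 and 0.55.

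ALDH1A1 is the cytosolic retinaldehyde dehydrogenase that is commonly scored when cells are sorted by aldehyde dehydrogenase activity. The gene (ENSG00000165092, chr9:72900662-73080442, minus strand, GRCh38) stood at 56.3, 59.6 and 55.5 CPM in scramble replicates 1 to 3, at 31.3, 24.9 and 25.3 CPM in sh76 and at 28.3, 25.2 and 29.7 CPM in sh78. Every knock-down sample lay below every scramble sample, and the hairpins overlapped with each other. ALDH1A1 fell to 47.5% of the scramble mean in sh76 (log2 fold change −1.08, SE 0.10, edgeR adjusted p = 6.5e-05). It fell to 48.5% in sh78 (−1.04, SE 0.10, adjusted p = 7.32e-05), and sh78 against sh76 gave 0.04 (SE 0.10, adjusted p = 0.923). ALDH1A1 passed the test in all 19 alternative settings for both hairpins, the omission of each sample among them. No other gene in the annotation overlaps its exons, and none of its 100-base stretches occurs in another gene's transcripts.

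The 250 bases before the RefSeq start of ALDH1A1 (chr9:72953054-72953303, minus strand, GRCh38.p14) are given because this was the member with the steadiest fall. That start lies inside the longer gene span of the count annotation.
ALDH1A1 promoter: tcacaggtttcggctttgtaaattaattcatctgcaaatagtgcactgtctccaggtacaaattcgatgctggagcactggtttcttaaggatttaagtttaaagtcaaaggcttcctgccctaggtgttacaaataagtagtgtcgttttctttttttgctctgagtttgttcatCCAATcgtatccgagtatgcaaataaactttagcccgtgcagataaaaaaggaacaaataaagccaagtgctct
The window is 38.4% G and C, against a median of 58.0% over 35116 windows of RefSeq starts. Capitals mark its single CCAAT, 74 to 70 bases before the start, letters that were searched for on both strands after the window was seen and that 32% of all windows hold. Further letters were searched for in longer windows, which held the 250 bases before each start and 50 bases after it. The letters TGACNNNGC, the core of the antioxidant response element, were found on either strand in 13.3% of all these windows, or 16.1% of genes with a window. Of the 24 members with a window, 1 held them, AKR7A2. The letters TGATGNAA, the core of the C/EBP-ATF element, were found in 3.62% of these longer windows, or 4.46% of genes with a window. Of those 24 members, 1 held them, AKR1D1, which had 0 counts. AKR1B10 and ALDH2, both called with a hairpin, had no window and were not searched.

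ALDH1A2 and ALDH1A3, the other retinaldehyde dehydrogenases, were scarce. ALDH1A1 made up 96.8% ± 0.38 (SD, n = 3) of the summed FPKM of the 3 ALDH1A genes in scramble, 93.4% ± 1.52 in sh76 and 95.4% ± 1.57 in sh78. These shares depend on the merged exon lengths, 2849 bases for ALDH1A1, 8622 for ALDH1A2 and 5772 for ALDH1A3. In CPM, which takes no account of length, the scramble means were 57.13, 4.265 and 0.9314. The sum itself went from 20.6 ± 0.778 FPKM in scramble to 10.1 ± 1.19 in sh76 and 10.1 ± 0.661 in sh78. ALDH1A2 gave log2 fold changes of 0.07 and −0.46 (adjusted p = 0.91 and 0.318), and ALDH1A3 gave −0.16 and −0.78 (adjusted p = 0.886 and 0.389) at 7 to 24 counts per sample. An antisense gene covers 27.5% of ALDH1A3 exon bases, and the libraries carry no strand.

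ALDH1B1 and ALDH2 are related mitochondrial enzymes that oxidize acetaldehyde and other short aldehydes, and they were called in opposite directions. ALDH1B1 (chr9:38392664-38398661) stood at 29.1, 31.9 and 33.6 CPM in scramble, 40.6, 49.7 and 45.7 in sh76 and 39.8, 50.1 and 48.8 in sh78. All 6 knock-down samples were above all 3 scramble samples, with replicate 1 the lowest in each group. ALDH1B1 rose to 144% of scramble in sh76 (log2 fold change 0.52, SE 0.11, adjusted p = 0.0139) and to 147% in sh78 (0.55, SE 0.11, adjusted p = 0.00858). Its sh76 call was lost without scramble replicate 2 (adjusted p = 0.055), sh76 replicate 2 (adjusted p = 0.0867) or sh76 replicate 3 (adjusted p = 0.05, on the threshold), and its sh78 call held in all 19 alternatives.

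ALDH2 (chr12:111766887-111817529) stood at 24.3, 21.9 and 19.8 CPM in scramble, 17.8, 13.8 and 15.3 in sh76 and 10.99, 12.6 and 13.3 in sh78. The 3 groups did not overlap, with sh78 lowest. ALDH2 fell to 55.9% of scramble in sh78 (log2 fold change −0.84, SE 0.13, adjusted p = 0.00216), a call kept in all 19 alternatives, though the value was −0.53 on log2(FPKM + 1), where the added 1 shrinks changes of low genes. In sh76 it stood at 71.1% (−0.49, SE 0.13, adjusted p = 0.0483), just inside the threshold. That call held in only 8 of 19 alternatives, and it was lost on omission of any scramble sample (adjusted p = 0.127, 0.123 and 0.0586), sh76 replicate 2 (adjusted p = 0.213), sh76 replicate 3 (adjusted p = 0.134), sh78 replicate 2 (adjusted p = 0.0644) or sh78 replicate 3 (adjusted p = 0.057). The direct comparison gave −0.35 for sh78 against sh76 (adjusted p = 0.195, or 0.0207 with the replicate block). A gene on the same strand, AC002996.1, covers 7.0% of ALDH2 exon bases and was listed at 0 counts.

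The ratio of ALDH1A1 to ALDH1B1 on the FPKM scale reversed. It was 2.14, 2.07 and 1.83 in scramble, 0.853, 0.554 and 0.614 in sh76 and 0.788, 0.558 and 0.674 in sh78. ALDH1A1 was the more abundant of the pair in every scramble sample and the less abundant in every knock-down sample. Summed over all 18 ALDH genes, the level was 152 ± 5.38 FPKM in scramble, 145 ± 3.51 in sh76 and 147 ± 2.52 in sh78, and without ALDH1A1 it was 132 ± 5.29, 136 ± 4.26 and 137 ± 2.13. The share of ALDH1A1 in the ALDH sum went from 13.1% ± 0.576 to 6.51% ± 0.949 and 6.58% ± 0.471.

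Of the ALDH enzymes of amino acid breakdown and synthesis, ALDH5A1 and ALDH6A1 fell in sh78. ALDH5A1, the succinate semialdehyde dehydrogenase that ends GABA breakdown (chr6:24494852-24537207), stood at 27.7, 30.6 and 28.5 CPM in scramble, 25.9, 24.5 and 25.0 in sh76 and 21.9, 18.6 and 22.9 in sh78. The groups did not overlap and ran in the order scramble, sh76, sh78. ALDH5A1 was at 73% of scramble in sh78 (log2 fold change −0.45, SE 0.10, adjusted p = 0.0186) and at 86.9% in sh76 (−0.20, adjusted p = 0.303). The sh78 call was lost without scramble replicate 2 (adjusted p = 0.0845), scramble replicate 3 (adjusted p = 0.05, on the threshold) or sh78 replicate 2 (adjusted p = 0.0783). Between the hairpins ALDH5A1 differed by −0.25 in sh78 against sh76 (adjusted p = 0.223, or 0.0335 with the replicate block). GPLD1, on the other strand, covers 4.33% of ALDH5A1 exon bases and had 11 to 28 counts.

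ALDH6A1, the methylmalonate semialdehyde dehydrogenase of valine breakdown (chr14:74056850-74084493), stood at 58.7, 57.4 and 53.7 CPM in scramble, 52.1, 51.5 and 49.0 in sh76 and 48.1, 43.3 and 44.6 in sh78. Again the groups did not overlap and sh78 was lowest. ALDH6A1 was at 80% of scramble in sh78 (log2 fold change −0.32, SE 0.08, adjusted p = 0.0272) and at 89.8% in sh76 (−0.15, adjusted p = 0.302). The sh78 call was lost without scramble replicate 1 (adjusted p = 0.0705) or 2 (adjusted p = 0.0904) and without sh78 replicate 2 (adjusted p = 0.104) or 3 (adjusted p = 0.0925). The direct comparison of sh78 with sh76 gave −0.17 (adjusted p = 0.292, or 0.0427 with the replicate block). BBOF1, on the other strand, covers 10.0% of ALDH6A1 exon bases and had 57 to 112 counts.

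ALDH18A1, which makes the proline precursor pyrroline-carboxylate, stood at 93.0 ± 2.07 CPM in scramble, 106 ± 0.713 in sh76 and 106 ± 6.69 in sh78. Its knock-down samples were all above scramble, yet it missed the threshold in both (log2 fold change 0.19 and 0.20, edgeR adjusted p = 0.136 and 0.111), and passed it with the replicate block (adjusted p = 0.00413 and 0.00296). ALDH7A1, of lysine breakdown, gave 0.07 in sh76 (adjusted p = 0.695) and 0.20 in sh78 (adjusted p = 0.149, or 0.000891 with the block). For ALDH7A1, sh78 against sh76 gave 0.13 (adjusted p = 0.391, or 0.0296 with the block). ALDH4A1, the proline-pathway enzyme that oxidizes that same intermediate, and ALDH9A1, of carnitine synthesis, gave log2 fold changes of −0.27 to 0.08, and neither was called. A gene on the same strand, AL080251.1, covers 41.1% of ALDH4A1 exon bases and was listed at 0 counts, so the ALDH4A1 level is uncertain.

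The ALDH3 genes encode enzymes of longer fatty aldehydes, and none was called without the block. ALDH3A2, the fatty aldehyde dehydrogenase, stood at 117 ± 6.21, 105 ± 2.53 and 112 ± 3.48 CPM in scramble, sh76 and sh78. Its sh76 samples were all below scramble (−0.15, adjusted p = 0.207, or 0.0149 with the block). ALDH3B1 varied more within groups, at 122 ± 17.6, 124 ± 12.1 and 134 ± 12.6 CPM, and its sh78 value of 0.14 passed only with the block (adjusted p = 0.572, or 0.0275 with the block). ALDH3B2 gave −0.19 in sh76 and 0.01 in sh78, and 0.20 for sh78 against sh76 (adjusted p = 0.509, or 0.0457 with the block). ALDH3A1 (6 to 15 counts), ALDH1L1 of folate metabolism (1 to 14 counts) and ALDH16A1 were not called, and ALDH1L1 had the widest error of the tested members (−1.30, SE 0.62, in sh76).

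**Figure D3:**
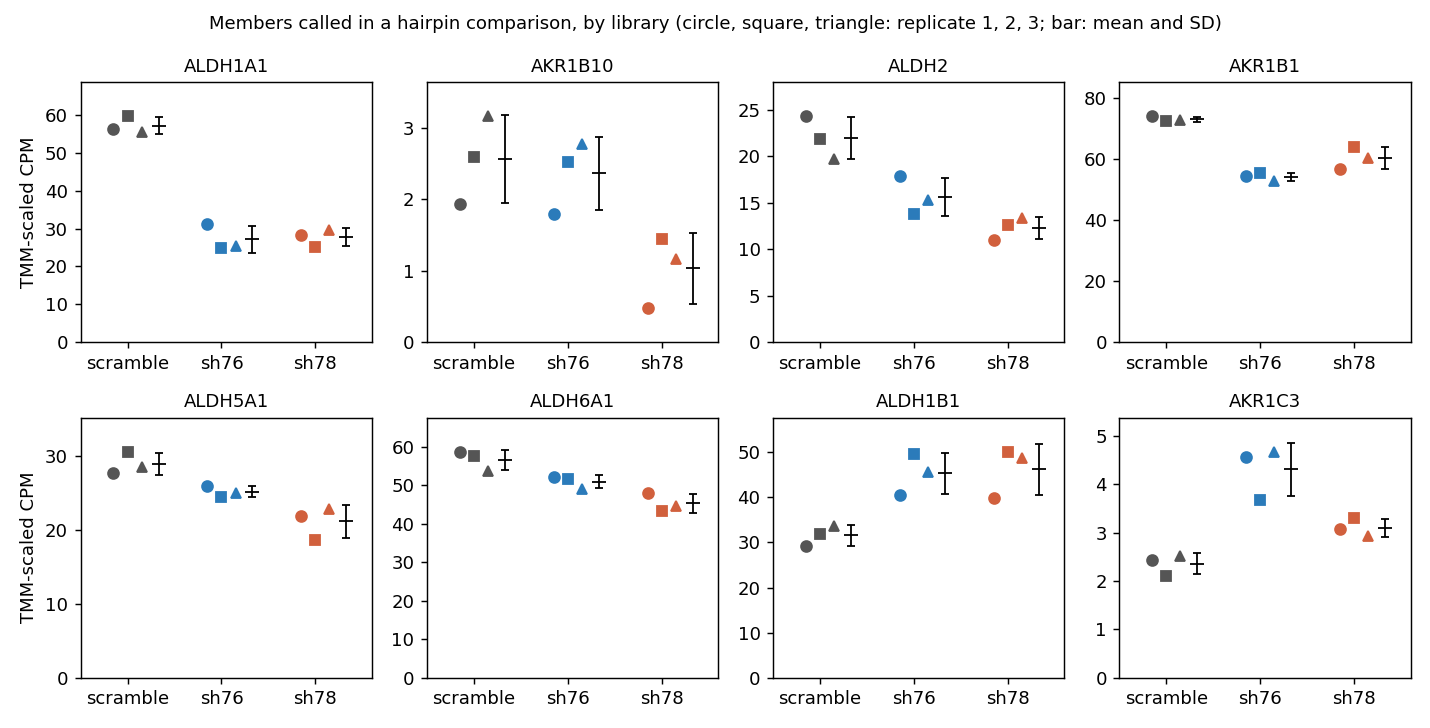
TMM-scaled CPM of the 8 members called in sh76 or sh78 against scramble, by sample (circle, square and triangle for replicates 1 to 3), with mean and SD as bars and axes from 0. ALDH1A1 drops from 57.1 ± 2.19 to 27.2 ± 3.57 and 27.7 ± 2.27 CPM, and ALDH1B1 climbs from 31.5 ± 2.26 to 45.3 ± 4.58 and 46.2 ± 5.65 CPM.

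Among the reductases, AKR1B1 is aldose reductase, which turns glucose into sorbitol and also reduces lipid aldehydes. AKR1B1 (chr7:134442350-134459284) stood at 74.1, 72.5 and 72.7 CPM in scramble, 54.6, 55.3 and 52.9 in sh76 and 56.8, 64.1 and 60.3 in sh78. The scramble samples were tightly grouped above all others, and the sh78 samples lay above the sh76 samples. AKR1B1 fell to 74.2% of scramble in sh76 (log2 fold change −0.43, SE 0.07, adjusted p = 0.00365), in all 19 alternatives. In sh78 it was at 82.6% (−0.28, SE 0.07, adjusted p = 0.0382). That call held in 11 of 19 alternatives, and among the omissions of a sample only without sh76 replicate 1 or sh78 replicate 2, the other 7 giving adjusted p-values of 0.0529 to 0.14. Set against sh76, sh78 gave 0.15 (adjusted p = 0.292).

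AKR1B10, its neighbour on chromosome 7 (chr7:134527592-134541408), reduces retinaldehyde and lipid aldehydes and is induced by NRF2, the oxidant-sensing transcription factor. It was scarce, at 9 to 58 counts per sample, or 1.93, 2.58 and 3.16 CPM in scramble, 1.79, 2.52 and 2.77 in sh76 and 0.485, 1.44 and 1.17 in sh78. The sh78 samples were below all others, and the scramble and sh76 ranges overlapped. AKR1B10 stood at 40.4% of scramble in sh78 (log2 fold change −1.34, SE 0.36, adjusted p = 0.0482), just inside the threshold, and at 92.3% in sh76 (−0.11, adjusted p = 0.906). On log2(FPKM + 1), where the added 1 shrinks changes of low genes, the sh78 value was −0.64 (limma adjusted p = 0.065). The sh78 call held in 8 of 18 alternatives, and among the omissions of a sample only without scramble replicate 1, sh76 replicate 1 or sh78 replicate 2, the other 6 giving adjusted p-values of 0.0613 to 0.175. Sh78 against sh76 gave −1.23 (SE 0.36, adjusted p = 0.0756), and this passed with the replicate block (adjusted p = 0.00132).

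AKR1C3, a ketosteroid and prostaglandin reductase (chr10:5035354-5107686), had 36 to 98 counts per sample, or 2.44, 2.11 and 2.53 CPM in scramble, 4.57, 3.68 and 4.68 in sh76 and 3.07, 3.30 and 2.92 in sh78. The sh76 samples were above all others and the sh78 samples lay between. AKR1C3 rose to 183% of scramble in sh76 (log2 fold change 0.86, SE 0.20, adjusted p = 0.0264), and sh78 gave 131% (0.39, SE 0.21, adjusted p = 0.359). The sh76 value was 0.35 on log2(FPKM + 1) (limma adjusted p = 0.0378). The sh76 call was lost on omission of any 1 scramble sample (adjusted p = 0.0535, 0.114 and 0.0699) and without sh76 replicate 1 (adjusted p = 0.071) or 3 (adjusted p = 0.102). AKR1C3 in sh78 against sh76 gave −0.47 (adjusted p = 0.23).

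AKR1C1 and AKR1C2, which reduce progesterone and androgens respectively, were not called singly. AKR1C2 gave 0.76 in sh76 (adjusted p = 0.216) and 0.09 in sh78. AKR1C1 gave 0.38 in sh76 and −0.69 in sh78, with sh78 against sh76 at −1.07 (adjusted p = 0.153, or 0.00577 with the block). In the annotation, 16.7% of the 100-base stretches of AKR1C1 transcripts and 23.1% of those of AKR1C2 occur in another gene's transcripts, nearly all in each other, against 1.75% for AKR1C3. How the counting treated reads that match several genes is not given in the sources used here. Single AKR1C values are therefore uncertain, those of AKR1C1 and AKR1C2 more than that of AKR1C3 by these shares.

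Counts were also summed over 4 groups of related genes, of which ALDH3B1 and ALDH3B2 share no 100-base stretch. The AKR1C1 to AKR1C4 sum was 5.34, 6.22 and 5.17 CPM in scramble, 9.44, 8.43 and 9.16 in sh76 and 5.44, 6.40 and 5.20 in sh78. The sh76 samples stood above all others, and scramble and sh78 overlapped. The sum rose in sh76 (log2 fold change 0.69, SE 0.15, edgeR adjusted p = 0.0221) and gave 0.02 in sh78 (SE 0.16, adjusted p = 0.963). Without scramble replicate 1 or 3, or any 1 of the sh76 samples, the sh76 call was lost (adjusted p = 0.0577 to 0.0942). The hairpins differed directly, with sh78 against sh76 at −0.67 (SE 0.15, adjusted p = 0.0268), a call lost without any 1 sh76 sample or sh78 replicate 1 or 3 (adjusted p = 0.0667 to 0.108).

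AKR1B10 and AKR1B15 share few 100-base stretches, 0.901% of those of AKR1B10 and 0.527% of those of AKR1B15. Their sum was 2.12, 2.64 and 3.16 CPM in scramble, 2.04, 3.05 and 3.20 in sh76 and 0.754, 1.51 and 1.17 in sh78. The sh78 samples were below all others. The sum fell in sh78 (log2 fold change −1.23, SE 0.31, adjusted p = 0.037), gave 0.07 in sh76 (adjusted p = 0.934), and differed between the hairpins by −1.30 (SE 0.30, adjusted p = 0.0295). The sh78 call was lost without scramble replicate 2 or 3, sh76 replicate 2, or sh78 replicate 1 or 3 (adjusted p = 0.057 to 0.145), and the direct difference without sh76 replicate 2 or 3 or sh78 replicate 1 or 3 (adjusted p = 0.0897 to 0.127).

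**Figure D4:**
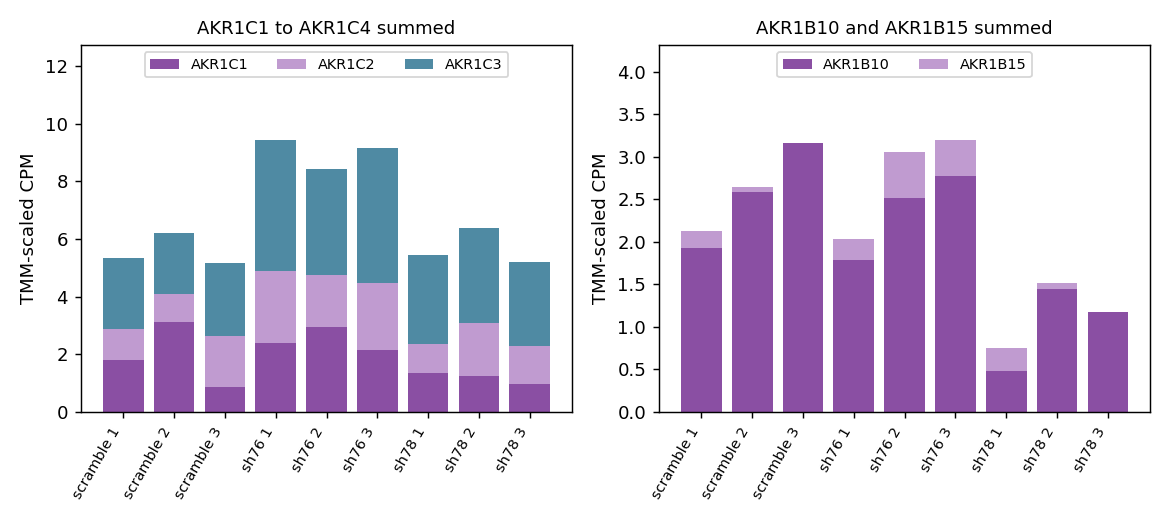
Summed TMM-scaled CPM of related genes in each of the 9 samples, stacked by gene. The stacks are AKR1C1 to AKR1C3 (AKR1C4 was at 0) and AKR1B10 with AKR1B15. The AKR1C stack is highest in the 3 sh76 samples (8.43 to 9.44 CPM), and the AKR1B10 stack is lowest in the 3 sh78 samples (0.754 to 1.51 CPM).

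The remaining reductases were not called. AKR1A1 stood at 122 ± 4.77, 118 ± 7.78 and 126 ± 5.44 CPM in scramble, sh76 and sh78. AKR7A2, an aflatoxin aldehyde reductase, stood at 32.4 ± 2.76, 29.4 ± 2.58 and 29.6 ± 1.00 CPM, and its relative AKR7A3 had 10 to 38 counts, with 12.2% of its stretches shared with AKR7L. The AKR7A2, AKR7A3 and AKR7L sum was not called in sh76, sh78 or between them (adjusted p = 0.424, 0.534 and 0.946), and neither was the ALDH3B1 and ALDH3B2 sum (adjusted p = 0.962, 0.673 and 0.633). AKR1E2 gave log2 fold changes of −0.24 and −0.11. Over all 13 AKR genes the summed level was 81.4 ± 3.54 FPKM in scramble, 73.0 ± 4.12 in sh76 and 76.8 ± 3.03 in sh78.

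Between the hairpins, no single member was called by edgeR, where 3.7% of all genes were (1.97% higher and 1.72% lower in sh78), and 11 of the 26 had an unadjusted p under 0.05, 2 of them higher and 9 lower. Over all genes 8.11% were higher and 8.15% lower at that unadjusted p. Samples did not overlap in 3 members above and 9 below, where 10.9% of all genes lay on each side. DESeq2 called AKR1B10 alone and edgeR without the count minimum called AKR1B10 and AKR1C1. The block called 2 higher (ALDH3B2 and ALDH7A1) and 5 lower (AKR1B10, AKR1C1, ALDH2, ALDH5A1 and ALDH6A1), where it called 9.69% of all genes higher and 8.62% lower. The median over the members was 0.01, beside 0.00 over all genes.

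Genes of related pathways were counted from lists written for this purpose. Counts of calls with the block are to be read against the 8.62% to 10.7% of all genes that the block called in each direction of a comparison. Counts without the block are to be read against the 1.43% to 2.56% of all genes called in each direction without it. Of 22 genes of retinoid supply and signalling, 16 were tested, with a median log2 fold change of −0.18 in sh76 and −0.05 in sh78. DHRS3, which returns retinaldehyde to retinol, fell from 24.9 ± 2.39 CPM to 12.5 ± 3.42 in sh76 (−0.99, adjusted p = 0.00568) and 13.6 ± 1.73 in sh78 (−0.88, adjusted p = 0.00905). No gene of this list rose in sh76 or sh78 without the block, which called 2 higher and 5 lower in sh76, and 2 higher and 4 lower in sh78.

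Of 26 genes of the NRF2 pathway, 25 were tested, with medians of −0.12 in sh76 and −0.14 in sh78. In sh76 the cystine transporter SLC7A11 (−0.67, adjusted p = 0.0177) and the ferritin light chain FTL (−0.42, adjusted p = 0.0104) fell. In sh78 SLC7A11 (−0.83, adjusted p = 0.00437), the thioredoxin reductase TXNRD1 (−0.54, adjusted p = 0.00162) and the quinone reductase NQO1 (−0.40, adjusted p = 0.0155) fell. NQO1 stood at 93.1, 106 and 70.5 CPM in scramble, sh76 and sh78, and both NQO1 (−0.59, adjusted p = 0.00169) and TXNRD1 (−0.35, adjusted p = 0.0281) were lower in sh78 than in sh76. No NRF2 pathway gene rose in sh76 or sh78 without the block, which called 3 higher and 9 lower in sh76, 0 higher and 8 lower in sh78, and 3 higher and 7 lower for sh78 against sh76.

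Of 12 enzymes of proline, glutamate and GABA metabolism, neighbours of ALDH18A1, ALDH4A1 and ALDH5A1, 9 were tested and 2 fell in each hairpin. PYCR1, which makes proline from the product of ALDH18A1, stood at 136 ± 10.9 CPM in scramble and fell to 94.7 ± 3.19 in sh76 (−0.52, adjusted p = 0.00114) and 97.2 ± 3.55 in sh78 (−0.48, adjusted p = 0.00126). GLUD1, glutamate dehydrogenase, fell in sh76 (−0.25, adjusted p = 0.023) and sh78 (−0.45, adjusted p = 0.000408). The block called 1 higher and 2 lower in sh76, and 0 higher and 3 lower in sh78. The medians of this list were −0.05 and −0.25.

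Of 16 other carbonyl reductases and alcohol dehydrogenases, 10 were tested and 1 was called, DCXR, the xylulose reductase, at 80.3, 63.4 and 73.3 CPM in scramble, sh76 and sh78. DCXR fell in sh76 (−0.34, adjusted p = 0.0109) and gave −0.13 in sh78 (edgeR adjusted p = 0.337, or 0.0739 with the block). The block called 2 of the list higher and 1 lower in sh76. In sh78 it called 0 higher and 1 lower, which was not DCXR. The list medians were −0.07 and −0.06. Of 19 steroid enzymes, 12 were tested and 1 was called, the hydroxysteroid dehydrogenase HSD17B14 in sh76 (−0.98, adjusted p = 0.0475), where the block called 2 higher and 1 lower. In sh78 HSD17B14 gave −0.66 (adjusted p = 0.173, or 0.0348 with the block), the only call of the block there. The list medians were 0.05 and 0.07.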

How the data were processed

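Poly-A RNA sequencing libraries without strand were made from 3 samples per group, per the labels' protocols. The authors deposited raw counts and FPKM for 58735 genes, and the submitters' processing notes name HISAT2 2.0.5, featureCounts 1.5.0-p3 and hg38. Their settings, including the treatment of reads that match several genes, are not given in the sources used here. All 58735 rows matched GENCODE release 29 by name and position. The deposited FPKM equalled counts over the merged exon length and a size per library, 98.09% to 102.97% of its total count.

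Genes were kept with filterByExpr (minimum count 10, total 15), which left 17023. Tests used edgeR 4.0.16 under R 4.3.3 (TMM scaling, robust quasi-likelihood fit of all 9 samples, 1 coefficient per group, Benjamini-Hochberg adjustment over all genes, threshold 0.05), a procedure checked on simulated data. The common biological coefficient of variation was 10.4%. CPM are scaled with the TMM factors, errors are SD over 3 samples, and the precision of scarce genes is limited by counting.

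Nothing says that replicates came from separate cultures, so p-values measure only the spread between these samples, which may be technical. No replicate duplicated another (chi-square per degree of freedom 5.32 to 12.2). The labels number the replicates in every group. Deviations from group means correlated at r = 0.351 to 0.63 in all 9 same-numbered pairs and at −0.521 to 0.112 in the 18 others, across 12694 genes, so the numbers were taken to pair the samples. The fit with that block is printed beside a member where it changes the call, and as counts for the lists. Other calls, and the omissions of a sample, are from fits without the block. With it every member call against scramble was kept. Its adjusted p was 0.000283 for ALDH2 in sh76. In sh78 it was 0.000208 for AKR1B1, 0.000415 for AKR1B10, 6.53e-05 for ALDH5A1 and 6.03e-05 for ALDH6A1. The block also called 20.4% of all genes in sh76 and 19.9% in sh78.

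The members and lists were chosen with earlier results of these data known. Every member called in a comparison is given by sample, and of each list at most 4 called genes per hairpin are named. A called gene of the retinoid list is not reported here. Sums over related genes were fitted in place of their genes. Alternatives were DESeq2 1.42.0, other scalings and filters, and limma 3.58.1 on log2(FPKM + 1) and log2(FPKM + 0.1) from the authors' FPKM. Further alternatives were the block, the 6 samples of 2 groups, summed related genes and the omission of each sample. The omissions for the sums were added after seeing the data. Promoter windows came from RefSeq (GRCh38.p14), where 24 members, 6 of the 8 called in a hairpin comparison among them, had an entry.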

Additional observations from a re-analysis of the deposited data

Results flagged for a closer look

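The AKR1B10 and AKR1B15 sum differed between the hairpins when they were tested directly. On the log2 scale sh78 lay at −1.30 relative to sh76 (edgeR, adjusted p = 0.0295), with all 3 sh78 samples below all 3 sh76 samples. The call was lost in 4 of 9 omissions of a sample (adjusted p up to 0.127). AKR1B10 alone, without AKR1B15, was not called between the hairpins (−1.23, edgeR adjusted p = 0.0756).

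The AKR1C1 to AKR1C4 sum also differed between the hairpins. The log2 value of sh78 relative to sh76 was −0.67 (edgeR adjusted p = 0.0268), again with every sh78 sample below every sh76 sample. The call was lost in 5 of 9 omissions (adjusted p up to 0.108).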

How the results depend on the processing

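None of the log2 fold changes of the 8 members given by sample reversed a call in the 150 combinations of member and alternative per comparison. A value stayed on its side of the threshold in 131 combinations for sh76, 124 for sh78 and 144 for sh78 against sh76. A call was lost in 19 for sh76 and 26 for sh78, and 6 values for sh78 against sh76 newly passed the threshold. With the replicate block, 4 members were higher in sh78 in place of 1, where the share of all genes went from 1.85% to 9.79%. For sh78 against sh76, 2 were higher and 5 lower in place of 0. There the shares of all genes went from 1.97% to 9.69% higher and from 1.72% to 8.62% lower. Shares over all genes are not given here for the settings that follow, so their counts have no background. With the 6 samples of 2 groups, 3 members fell in sh78 in place of 6. For sh78 against sh76, DESeq2 called 1 lower, no count minimum 2, and summed related genes 2. On log2(FPKM + 1) the median of sh78 was −0.056.

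Omitting each sample in turn gave 0 to 2 members higher in sh76, 2 to 6 lower in sh78, and medians of −0.130 to −0.003 in sh76, −0.219 to −0.072 in sh78 and −0.057 to 0.013 for sh78 against sh76. The fewest sh78 calls came without scramble replicate 2, and the sh76 median of −0.003 without sh76 replicate 1. Causes were not tested. AKR1B10, AKR1C1, AKR1C2 and ALDH1L1 had few counts and carry a counting error that limits what these depths can show.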
